A study of Mus musculus with 6 samples.

Results

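The suprabasal keratinocytes of the mouse embryonic flank skin comprised 1982 of 8922 keratinocytes, among 40653 cells that passed the quality filters in 6 single-cell libraries. Filters kept cells with at least 500 detected genes and at most 10% of UMIs from mitochondrial genes (a UMI, or unique molecular identifier, counts 1 captured RNA molecule). A keratinocyte had at least 10 UMIs summed over Krt5, Krt14, Krt15, Epcam and Perp and at most 5 over the collagens Col1a1, Col1a2 and Col3a1. It was called suprabasal when Krt1, Krt10 and Krtdap together gave at least 8 UMIs, a total called the marker sum below. Those 11 genes therefore chose the cells, and their levels are given as description with no test.

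The epidermis begins as a single basal layer that divides, and cells that leave this layer move upward and differentiate. Leaving the basal layer is accompanied by a switch from the keratin pair Krt5 and Krt14 to the pair Krt1 and Krt10, a process in which Notch signalling takes part. The upper layers later make cornified envelope proteins such as loricrin, barrier lipids and strong desmosomes, while a temporary outer sheet, the periderm, covers the embryo. E13.5 to E14.5 is the period in which the mouse trunk epidermis stratifies.

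The skin was dorsolateral and flank skin, pooled from 3 to 4 embryos per library, dissociated with trypsin, stained with the dead-cell dye DAPI, sorted and run on droplet single-cell 3′ chemistry. There were 2 libraries labelled WT at E13.5 and 2 at E14.5, called controls here, and 1 mutant library at each stage, called LOF as in its labels. All 6 libraries were labelled CD1 for strain or background. The LOF embryos were PDGFRalphaCreER(Lo);beta-catfl/fl;mTmG, and those mice received 1 dose of tamoxifen at E11.5. In this genotype a tamoxifen-dependent Cre recombinase under Pdgfra control, active in dermal fibroblasts, deletes floxed beta-catenin and switches the mTmG reporter from tdTomato to eGFP. The labels do not say whether replicate libraries came from separate litters, so p-values measure only the spread between libraries.

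Kept cells numbered 5850 to 8922 per library, from total counts of 53461986 to 86446575 UMIs. Between pairs of libraries 917 kept barcodes recurred, of which 1 was shared by suprabasal cells. Both control libraries numbered 2 carried eGFP in fibroblasts, at 110 UMIs per 1000000 (CPM) at E13.5 and 88.8 at E14.5, against 3.05 and 5.57 in the controls numbered 1 and 337 and 309 in the LOF libraries. The WT label of those 2 libraries thus did not match the reporter, and the stage counts are also given without each of them below. Beta-catenin itself (Ctnnb1) was at 193, 175 and 245 CPM in E13.5 fibroblasts (control 1, control 2, LOF) and at 180, 171 and 196 at E14.5. A 3′ count lies outside the floxed part of that gene, so these values check nothing about the deletion.

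Suprabasal cells were rare at E13.5 and made up a far larger part of the keratinocytes a day later. The counts were 45 of 1022 keratinocytes in E13.5 control 1, 9 of 1053 in control 2 and 32 of 706 in LOF. At E14.5 they were 587 of 1765 in control 1, 612 of 1742 in control 2 and 697 of 2634 in LOF. The E13.5 shares were 4.40% (exact binomial 95% interval 3.23 to 5.85), 0.855% (0.392 to 1.62) and 4.53% (3.12 to 6.34). Those at E14.5 were 33.3% (31.1 to 35.5), 35.1% (32.9 to 37.4) and 26.5% (24.8 to 28.2). Every E14.5 library lay above every E13.5 library, and the intervals cover counting error only.

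The mean control share was 2.63% ± 2.51 (SD, n = 2) at E13.5 and 34.2% ± 1.33 (SD, n = 2) at E14.5. With 2 libraries against 2, an exact two-sided permutation test cannot give a p below 0.333, so no test was run. After each cell was thinned to 3000 UMIs, with the cutoffs scaled to 3 keratinocyte, 2 collagen and 3 marker UMIs, the shares were 4.32, 1.09 and 3.17% at E13.5 and 32.0, 35.7 and 27.5% at E14.5. The E14.5 LOF share lay below both E14.5 controls before and after thinning, with an interval that did not overlap theirs either time. After thinning it was 25.8 to 29.2, against 29.8 to 34.1 in control 1 and 33.5 to 37.9 in control 2. With 1 LOF library per stage this difference has no replicate check.

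**Figure D1:**
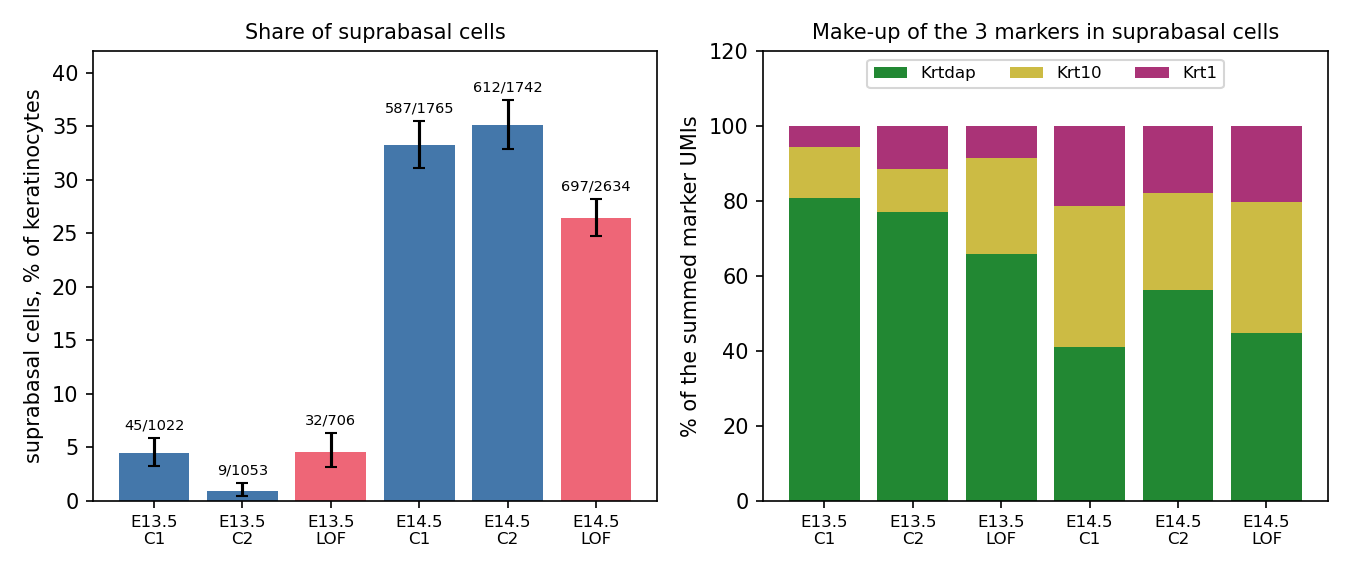
Left, suprabasal cells as a percentage of keratinocytes in each library (C1 and C2, control 1 and 2), with exact binomial 95% intervals as bars and the cell counts above them; right, the percentage of the summed Krt1, Krt10 and Krtdap UMIs of the suprabasal cells that came from each gene. The 3 E14.5 shares lie between 26.5 and 35.1% and the E13.5 shares between 0.855 and 4.53%, and Krtdap makes up 65.9 to 80.9% of the marker UMIs at E13.5 against 41.1 to 56.1% at E14.5.

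Of the 5 markers of the label, Krt1, Krt10 and Krtdap chose the cells, so their levels cannot check it. Sfn and Dmkn lay outside the rule and are given below. The make-up of the marker signal differed by stage. Krtdap, a secreted keratinocyte differentiation protein, stood at 1579, 1204 and 992 CPM in the E13.5 libraries (control 1, control 2, LOF, the order used throughout). At E14.5 it stood at 5000.0, 6639 and 5468 CPM. Krt10, the type I keratin of the upper layers, was at 265, 179 and 384 CPM at E13.5 and 4585, 3083 and 4284 at E14.5. Its partner Krt1 was at 108, 179 and 128 CPM and then at 2594, 2104 and 2492.

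Krtdap supplied 80.9, 77.1 and 65.9% of the marker UMIs at E13.5 and 41.1, 56.1 and 44.7% at E14.5, so E13.5 cells were mostly called on Krtdap. Their median marker sums were 27, 14 and 20 UMIs, against 135, 115 and 114 at E14.5. Sfn (stratifin, an epithelial 14-3-3 protein) was not used by the rule. It was at 2183, 1801 and 1682 CPM at E13.5 and 1658, 1794 and 1647 at E14.5, with overlapping groups, and at 276 to 392 CPM in the other keratinocytes.

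As background, 37.9% of E14.5 control 1 fibroblasts had a Krt10 UMI and 25.3% a Krtdap UMI. In the suprabasal cells of that library the shares were 96.6% and 99.8%, with medians of 49 and 59 UMIs per cell. Likely doublets, suprabasal cells with at least 2 UMIs of muscle, macrophage, Schwann, melanoblast or endothelial markers or over 3 times the median UMIs of the library's suprabasal cells, numbered 17, 1, 5, 28, 55 and 40 across the libraries in the same order. They made up 37.8, 11.1, 15.6, 4.77, 8.99 and 5.74% of the suprabasal cells. The marker part of this cut alone was met by 27.2, 16.7, 36.5, 13.6, 15.7 and 8.93% of the other keratinocytes. Whether the flagged cells were doublets was not tested. Without likely doublets the stage comparison below called 612 genes in place of 670.

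Markers of most other cell types were low in the suprabasal cells. The endothelial genes Pecam1, Cdh5, Kdr and Cldn5 were all at 0 in both E13.5 controls, and the 5 endothelial markers summed to 13.5 to 30.0 CPM over the 6 libraries. The 5 macrophage markers summed to between 0 and 23.9 CPM, with Csf1r at 0 in 4 of 6 libraries. The 6 placode markers summed to 17.7, 19.9 and 51.3 CPM at E13.5, with Shh, Edar, Dkk4 and Lhx2 at 0, and to 65.8, 133 and 29.4 at E14.5, against 270.4 to 752 in the other keratinocytes. The 7 dermal fibroblast markers summed to 120 to 325 CPM, against 358 to 623 in the other keratinocytes. Globin and other red cell markers ran from 73.6 CPM in E13.5 control 1 to 1005 in E14.5 control 1, and their part in the results was not tested.

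Values near the cutoff are given as a description. Suprabasal cells with 8 to 11 marker UMIs numbered 135 and other keratinocytes with 4 to 7 numbered 803. In E13.5 control 1 the 9 cells just inside had 2300.3 CPM of Sfn, 692 of Krt14 and 47.8 of Krt15, while the 63 just outside had 557, 1106 and 734. In E13.5 LOF the 5 cells just inside had 1006, 1113 and 621 CPM and the 51 just outside 356, 1369 and 916, so the gap in basal keratins was smaller there than in control 1. In E14.5 control 1 the 37 cells just inside had 655 CPM of Sfn, 1730 of Krt14 and 1816 of Krt15, and those just outside 421, 1581 and 1516. The lowest marker sums at E14.5 thus belonged to cells with basal keratin levels near those of their neighbours below the cutoff.

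At E14.5, where cells were many, the suprabasal cells could be set beside the other keratinocytes of the same library. This contrast is a description with no test, because the rule chose cells along it. Of 10578 genes, 264 (2.5%) were over 2-fold higher and 115 (1.09%) over 2-fold lower in all 3 E14.5 libraries, on a scale of log2(CPM + 20). The genes furthest above their neighbours outside the rule were Mgst1, a microsomal glutathione transferase, Sbsn, Hspb1, Elovl4, Lgals3, Them5, Rab25, Gltp, S100a14 and Asprv1. Those furthest below were Cxcl14, a chemokine, Cald1, Wnt6, Lef1, Pdgfa, Sostdc1, Lmo1, Dcn, Kremen2 and Ccnd2.

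Hspb1, a small heat shock protein, was at 2235, 2738 and 2505 CPM in E14.5 suprabasal cells and 58.2, 116 and 69.3 in the other keratinocytes. Elovl4, an elongase of very long fatty acids used in barrier ceramides, was at 409, 402 and 400.1 CPM against 1.39, 2.65 and 1.55. Cxcl14 was at 192, 243 and 127 CPM against 1876, 1851 and 1766. Each value is 1 sum per library and class and shows no spread between cells. These genes were named because they lay furthest apart on this contrast.

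By group, leaving out the genes of the rule, 20 of 22 basal layer and hemidesmosome genes were lower in the suprabasal cells in all 3 E14.5 libraries, as were 24 of 28 Wnt and BMP genes and 18 of 18 replication genes. Higher in all 3 libraries were 18 of 23 early suprabasal genes, 13 of 15 desmosome genes and 25 of 30 barrier lipid genes. Over all 10578 genes, 3974 were higher and 4427 lower in all 3 libraries. The Notch genes were mixed, with 11 of 21 higher and 8 lower. Nrarp, a feedback target of Notch, was at 281, 294 and 248 CPM against 27.5, 35.1 and 20.3, and the receptor Notch3 at 55.0, 38.4 and 53.1 CPM against 1.39, 1.77 and 3.15.

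Comparison of the stages used the raw UMIs of the suprabasal cells summed per library and edgeR's quasi-likelihood test with stage and genotype as terms over 6 libraries. A gene was called at a Benjamini-Hochberg adjusted p under 0.05. Of 10578 genes tested, 670 (6.33%) were called, 435 (4.11%) higher and 235 (2.22%) lower at E14.5, and the median log2 fold change over all genes was 0.08. The count depended on single libraries. It was 171 without E13.5 control 2, whose 9 cells were under the planned minimum of 10. It was 281 without E14.5 control 1, 209 without E13.5 LOF, 240 without E14.5 LOF and 2892 without E14.5 control 2. Without E13.5 control 1 it was 606, and in the 4 control libraries alone it was 220.

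Most early differentiation genes rose. Outside the rule, 19 of 23 listed genes passed the filter on low counts; 16 rose, none fell, and the median log2 fold change was 3.54 (3.43 with a gene unseen at E13.5 set at its bound). Over all genes tested, 4.11% were called higher and 2.22% lower. Some genes pass such a filter only through their level at E14.5 and then had to be higher there. These counts, and those of the gene lists below, are therefore a description.

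Sbsn (suprabasin) was at 49.1, 29.9 and 49.4 CPM at E13.5 and 897, 743 and 894 at E14.5. The stages did not overlap, and the log2 fold change was 4.25 ± 0.26 (SE; edgeR quasi-likelihood test, adjusted p = 1.97e-14). Dmkn (dermokine) was at 353, 139 and 181 CPM and then at 2681, 2806 and 2751, a log2 fold change of 3.62 ± 0.29 (edgeR adjusted p = 4.27e-06). Lgals7 (galectin-7, an epithelial lectin) was at 121, 169 and 143 CPM and then at 1965, 1823 and 1814, with a log2 fold change of 3.81 ± 0.22 (edgeR adjusted p = 9.13e-15).

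Krt77, a type II keratin whose gene lies beside Krt1 on chromosome 15 (GRCm38, 101858731 to 101869705, minus strand), was at 12.3, 9.95 and 5.49 CPM and then at 178, 167 and 152. Ly6d, a membrane-anchored Ly6 protein, was at 2.73, 0 and 7.32 CPM and then at 218, 147 and 122. The edgeR log2 fold changes were 4.20 ± 0.36 (adjusted p = 1.89e-10) for Krt77 and 5.21 ± 0.44 (adjusted p = 2.1e-10) for Ly6d. Both genes were low in every E13.5 library and high in every E14.5 library.

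**Figure D2:**
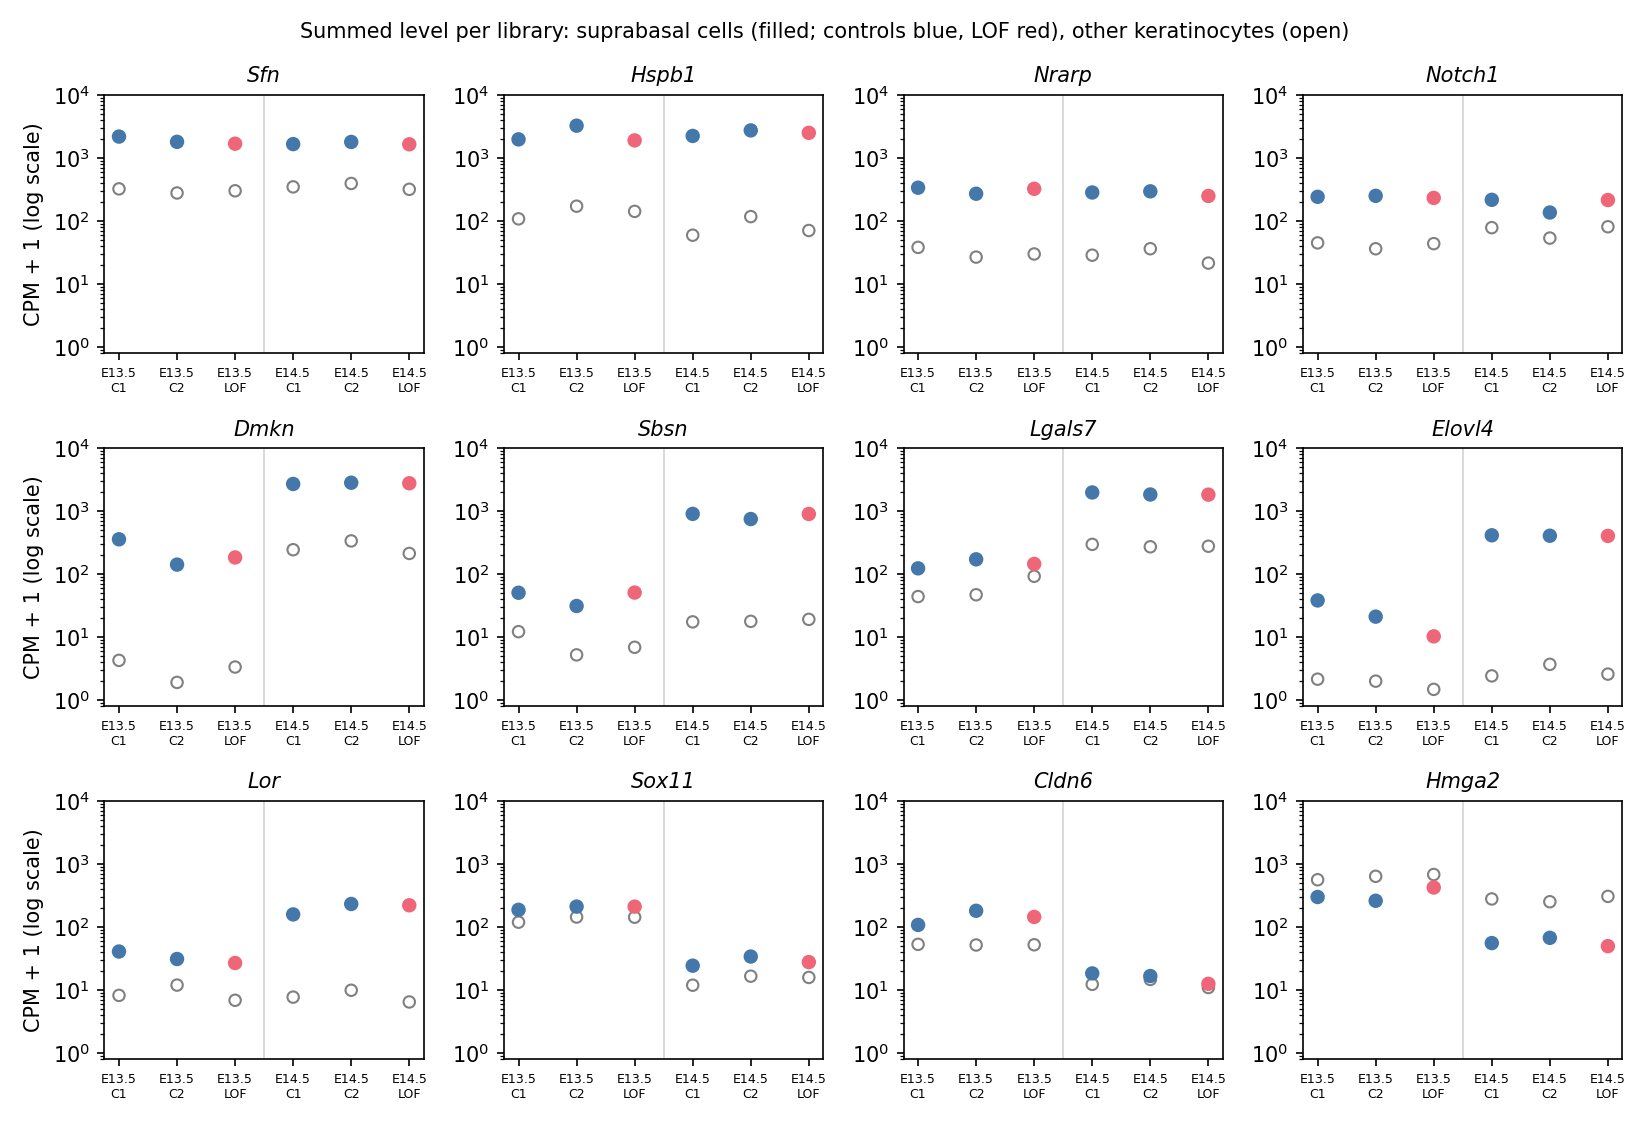
CPM + 1 on a log axis for 12 genes, 1 panel each, in the summed suprabasal cells (filled points, controls blue and LOF red) and the other keratinocytes (open points) of each library (C1 and C2, control 1 and 2). Dmkn, Sbsn, Lgals7, Elovl4 and Lor are higher in every E14.5 library, Sox11, Cldn6 and Hmga2 are lower, and Sfn, Hspb1 and Nrarp overlap between stages.

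The differentiation genes Sbsn, Dmkn and Krtdap lie within 1 cluster on chromosome 7 (GRCm38, plus strand, Sbsn 30751471 to 30756134, Dmkn 30763756 to 30781063, Krtdap 30787896 to 30791097), and Lor lies on chromosome 3 (92080271 to 92083142, minus strand). The upstream windows of Sbsn, Dmkn, Krtdap, Lor, Krt10, Krt77 and Sfn were searched. The sequences shown are those that held an AP-1 match, so their sharing it was fixed by this choice. Each runs 5′ to 3′ up to the base before the gene start, from the RefSeq promoter table of GRCm38.p6 (the Krtdap window is 241 bases long), and capitals mark matches to the AP-1 motif TGANTCA or to the TATA motif TATAAA, each searched on both strands. The windows are chr7:30751221-30751470, chr7:30763506-30763755, chr7:30787655-30787895 and chr3:92083143-92083392 (minus strand).
Sbsn: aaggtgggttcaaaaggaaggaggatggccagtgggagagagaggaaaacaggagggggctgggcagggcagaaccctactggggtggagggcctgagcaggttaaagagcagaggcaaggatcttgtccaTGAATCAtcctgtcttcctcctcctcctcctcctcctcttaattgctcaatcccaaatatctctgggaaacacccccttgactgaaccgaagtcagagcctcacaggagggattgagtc
Dmkn: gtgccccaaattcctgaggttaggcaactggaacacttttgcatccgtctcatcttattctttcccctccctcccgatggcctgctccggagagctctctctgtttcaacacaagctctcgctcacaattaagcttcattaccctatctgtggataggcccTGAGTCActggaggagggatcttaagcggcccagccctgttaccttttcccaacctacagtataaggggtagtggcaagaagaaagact
Krtdap: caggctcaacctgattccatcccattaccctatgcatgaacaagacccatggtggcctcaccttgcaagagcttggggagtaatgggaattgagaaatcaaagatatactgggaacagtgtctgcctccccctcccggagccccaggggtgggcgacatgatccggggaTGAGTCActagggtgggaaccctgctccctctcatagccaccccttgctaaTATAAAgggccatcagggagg
Lor: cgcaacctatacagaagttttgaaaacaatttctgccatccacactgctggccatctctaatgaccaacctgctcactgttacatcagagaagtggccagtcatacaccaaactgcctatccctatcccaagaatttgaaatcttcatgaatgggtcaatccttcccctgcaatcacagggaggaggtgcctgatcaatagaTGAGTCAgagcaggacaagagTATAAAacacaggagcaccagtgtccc
The AP-1 letters began 119, 89, 72 and 48 bases before the start of Sbsn, Dmkn, Krtdap and Lor. The same search in the 250 upstream bases of 27025 RefSeq promoters found them in 6.87%. TATAAA was present in the Krtdap and Lor windows and in 12.97% of all windows. The windows of Krt10, Krt77 and Sfn held no AP-1 match, although Krt77 rose too and Krt10 helped to define the cells. CCNCNCCC (KLF), AACCNG (GRHL) and TGGGAA (RBPJ) were searched too and, being present in 45.6, 33.7 and 21.5% of all windows, are not marked. A match is a description of letters, and no binding was measured.

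Cornified envelope genes were detected early and at low levels. Of 31 measured genes, 13 passed the filter, 2 of them without a UMI at E13.5, and 10 had no UMI in any suprabasal cell. Of the 13, 9 rose and none fell (median log2 fold change 3.01), beside 4.11% higher and 2.22% lower over all genes. Genes that passed the filter only through E14.5 had to be higher there. Lor (loricrin, the main envelope protein) was at 39.5, 29.9 and 25.6 CPM at E13.5 and 157, 230 and 219 at E14.5, a log2 fold change of 2.70 ± 0.30 (edgeR adjusted p = 6.01e-08). Asprv1, a skin aspartic protease, was at 85.9, 79.6 and 42.1 CPM and then at 496, 573 and 459.7. Tgm3, a transglutaminase that crosslinks the envelope, was at 6.82, 0 and 0 CPM and then at 73.3, 70.7 and 79.4. In all 3 genes the stages were apart.

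Among 30 barrier lipid genes 23 passed the filter, 11 rose and none fell, beside 4.11% higher and 2.22% lower over all genes. The median log2 fold change was 1.18 (0.92 with the 2 genes unseen at E13.5 set at their bounds). Elovl4 was at 36.8, 19.9 and 9.15 CPM at E13.5 against its 400.1 to 409 at E14.5 (log2 fold change 4.19 ± 0.32, edgeR adjusted p = 2.59e-10). Abca12, the transporter that loads lipid into lamellar granules, was at 2.73, 0 and 5.49 CPM and then at 82.4, 32.5 and 90.6. Fabp5, an epidermal fatty acid binding protein, was abundant at both stages, at 4199, 3025 and 3618 CPM and then 5342, 4855 and 5350.5. Its log2 fold change of 0.59 ± 0.17 passed the edgeR test at an adjusted p of 0.0326 and lost the call when any of 4 libraries was left out, E13.5 control 2, E14.5 control 1 or either LOF.

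Desmosome genes moved with single libraries as well as with stage. Outside the rule, 6 of 14 tested genes rose and none fell (median log2 fold change 1.59), beside 4.11% higher and 2.22% lower over all genes. Dsg1a, the desmosomal cadherin of upper layers, was at 15.0, 9.95 and 3.66 CPM and then at 168, 93.2 and 153. Dsp (desmoplakin) was at 337, 309 and 348 CPM and then at 1306, 419 and 1380.3, so E14.5 control 2 lay far below the other E14.5 libraries. Control 2 was also the lowest E14.5 library for Dsp in the other keratinocytes, at 350.2, 129.9 and 332 CPM, and for Mki67 in fibroblasts, at 375, 67.1 and 306. The Dsp call (log2 fold change 1.65 ± 0.36, edgeR adjusted p = 0.0359) was lost without E13.5 control 2, at an adjusted p of 0.145. Jup, Pkp1 and Pkp3, which link the desmosome to keratin, did not pass, with log2 fold changes of 0.45, 0.44 and 0.54.

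The largest rises chosen by the naming rule included Bpifc, Nupr1, Chl1, Sdr16c6, Lipm, Ly6d, Ndufa4l2, Serpinb5 and Muc15. Bpifc, of the lipid-transfer BPI family, had no UMI at E13.5 and was at 56.1, 53.9 and 61.2 CPM at E14.5, at least 26.3-fold higher against a floor of 3 UMIs over the E13.5 libraries. Nupr1, a stress-induced nuclear protein, was likewise at 0 and then at 46.9, 64.4 and 45.5 CPM, at least 23.7-fold higher. Lipm, an epidermal lipase, was at 2.73, 0 and 0 CPM and then at 58.0, 56.5 and 62.4. Muc15, a membrane mucin, was at 9.55, 9.95 and 3.66 CPM and then at 234, 75.7 and 231.

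The 10 largest falls were Cldn6, Nnat, Sox11, Hmga2, Bex2, Bex4, Duoxa1, Ccnd1, Mdk and Tubb2b. Cldn6, an embryonic claudin, was at 106, 179 and 143 CPM at E13.5 and 17.2, 15.5 and 11.4 at E14.5, and fell by 3.16 ± 0.32 on the log2 scale (edgeR adjusted p = 7.9e-09). Sox11, an embryonic transcription factor, was at 185, 209 and 209 CPM and then at 23.2, 32.8 and 26.5 (fell by 2.78 ± 0.27, edgeR adjusted p = 3.27e-09). Hmga2, a fetal chromatin protein, was at 297, 259 and 421 CPM and then at 54.2, 65.97 and 48.4 (fell by 2.46 ± 0.25, edgeR adjusted p = 1.9e-08). The Bex2 call was lost without E13.5 control 2, at an adjusted p of 0.0516. The levels of Cldn6 and Sox11 in the other keratinocytes dropped as well, Cldn6 from 50.5 to 51.7 CPM at E13.5 to 9.86 to 13.6 at E14.5 and Sox11 from 118 to 142 CPM to 10.8 to 15.5.

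Transcription factors of the epidermis split. Of 42 tested, 8 rose and 6 fell, with a median log2 fold change of -0.04, beside 4.11% higher and 2.22% lower over all genes. Klf4, a factor required for the skin barrier, was at 119, 49.8 and 91.5 CPM and then at 265, 270.1 and 289.8 (log2 fold change 1.59 ± 0.25, edgeR adjusted p = 4.18e-05). Cebpa rose by 1.05 ± 0.24 (edgeR adjusted p = 0.00518) but not without E13.5 control 2 (adjusted p = 0.115). Irx6, an Iroquois homeobox factor, was at 32.7, 19.9 and 53.1 CPM and then at 1.98, 0.609 and 2.23. Grhl3, a grainyhead factor needed for barrier formation, was at 177, 199 and 278 CPM and then at 110.0, 113 and 110.3. Its fall of 0.88 ± 0.23 (edgeR adjusted p = 0.0186) was lost without any of 4 libraries, E13.5 control 2, E14.5 control 1 or either LOF, and without likely doublets.

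No Notch pathway gene was called among 14 tested, a count near the 6.33% called over all genes, and their median log2 fold change was 0.03. Nrarp was at 335, 269 and 322 CPM at E13.5 and 281, 294 and 248 at E14.5 (log2 fold change -0.12 ± 0.22, edgeR adjusted p = 0.80). Notch1 was at 240.0, 249 and 231 CPM and then at 215, 135 and 213. Jag1, a Notch ligand, was at 161, 129 and 132 CPM and then at 86.6, 101 and 76.4, without a call (adjusted p = 0.117). Of 14 EGF family and feedback genes tested, 2 fell and none rose, beside 2.22% lower and 4.11% higher over all genes. Their median log2 fold change was 0.21, so the list as a whole did not fall. The 2 were the ETS factors Etv5 and Etv4, which fell by 3.48 ± 0.46 (edgeR adjusted p = 2.36e-06) and 2.57 ± 0.51 (adjusted p = 0.00111). The Etv4 call was lost without E13.5 control 1 (adjusted p = 0.113).

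In the cell cycle lists, 2 of 22 proliferation genes, Cdk1 and Aurkb, were called lower (median log2 fold change -0.12), as were 3 of 18 replication genes, Mcm2, Tyms and Dut (median -0.55), beside 2.22% of all genes. Cdkn1a, the cell cycle inhibitor p21, was at 27.3, 0 and 9.15 CPM and then at 137, 193 and 141, a log2 fold change of 3.28 ± 0.40 (edgeR adjusted p = 1.66e-05). The cyclin gene Ccnd1 was at 80.5, 99.5 and 109.8 CPM and then at 17.6, 18.3 and 21.8.

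Cells with at least 2 UMIs of the 22 proliferation genes, after thinning to 3000 UMIs, made up 88.9, 77.8 and 78.1% of suprabasal cells at E13.5 and 70.7, 59.6 and 61.0% of other keratinocytes. At E14.5 the shares were 57.1, 55.5 and 54.8% against 68.4, 62.6 and 68.1%. The suprabasal cells thus stood above their neighbours in every E13.5 library and below them in every E14.5 library. The replication genes at E13.5 summed to less in suprabasal cells of control 1 (1260 against 1904) and LOF (1531 against 1889). In control 2 they summed to more, at 2150 against 2043. Muscle-gated cells gave shares of 45.6 to 77.0%, so these shares are not read as fractions of dividing cells. The E13.5 values rest on 45, 9 and 32 cells.

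Since E13.5 cells lay low on the marker sum, the stages were also compared within cells of 8 to 60 marker UMIs, an alternative chosen after the data were seen. The band held 41, 9 and 31 cells at E13.5 and 132, 176 and 179 at E14.5. Of 8716 genes tested, 154 (1.77%) were called, 98 higher (1.12%) and 56 lower (0.642%). Of the 670 calls above, 578 were tested in both settings, 542 kept their sign and 85 were called in both. The median absolute log2 fold change of those 578 was 1.54 over all suprabasal cells and 0.98 in the band. Fewer cells entered the band, and how far this rather than matching lowered the count was not tested.

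Within the band the early genes came apart. Dmkn was still higher at E14.5 (log2 fold change 2.51, edgeR adjusted p = 0.000159), as were Sbsn (1.78, adjusted p = 0.00159), Lgals7 (1.99, adjusted p = 9.21e-05), Ly6d (3.38, adjusted p = 0.01) and Serpinb5 (4.54, adjusted p = 0.000319). Krt77 (0.22), Lgals3 (0.10) and S100a14 (0.32) were not called, and neither were Elovl4 (1.65, edgeR adjusted p = 0.0604) or Them5 (1.13, adjusted p = 0.124). Lor changed sign, to -0.51 with an edgeR adjusted p of 0.537. No gene of the late differentiation list (8 tested) or the barrier lipid list (19 tested) was called in the band, counts near the 1.77% called there over all genes.

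The band also held calls that the full set did not. Its cells were matched on the marker sum and not on basal genes. Within 8 to 11 marker UMIs, Krt15 was at 47.8, 288 and 621 CPM at E13.5 and at 1816, 1327 and 1895 at E14.5. Of 21 basal layer genes tested in the band outside the rule, 3 were called higher and none lower, beside 1.12% and 0.642% of all genes. Their median log2 fold change was 1.23, against 0.02 over all suprabasal cells. The part of this in the calls given next was not tested. Sfn was lower at E14.5 by 0.93 (edgeR adjusted p = 0.0152) and Nrarp by 1.18 (adjusted p = 0.00652). Hspb1 gave -2.12 without a call (edgeR adjusted p = 0.118). In the other direction Lef1, a Wnt effector, was higher by 2.91 (edgeR adjusted p = 0.000347), Wnt6 by 1.56 (adjusted p = 0.0367) and Col17a1, a hemidesmosomal collagen, by 3.17 (adjusted p = 0.0199). Cldn6, Sox11, Bex4, Duoxa1, Irx6 and Etv5 were called lower at E14.5 in both settings, as were Grhl3 (-1.27 in the band) and Id2 (-1.25), each at an edgeR adjusted p of 0.00768 in the band.

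**Figure D3:**
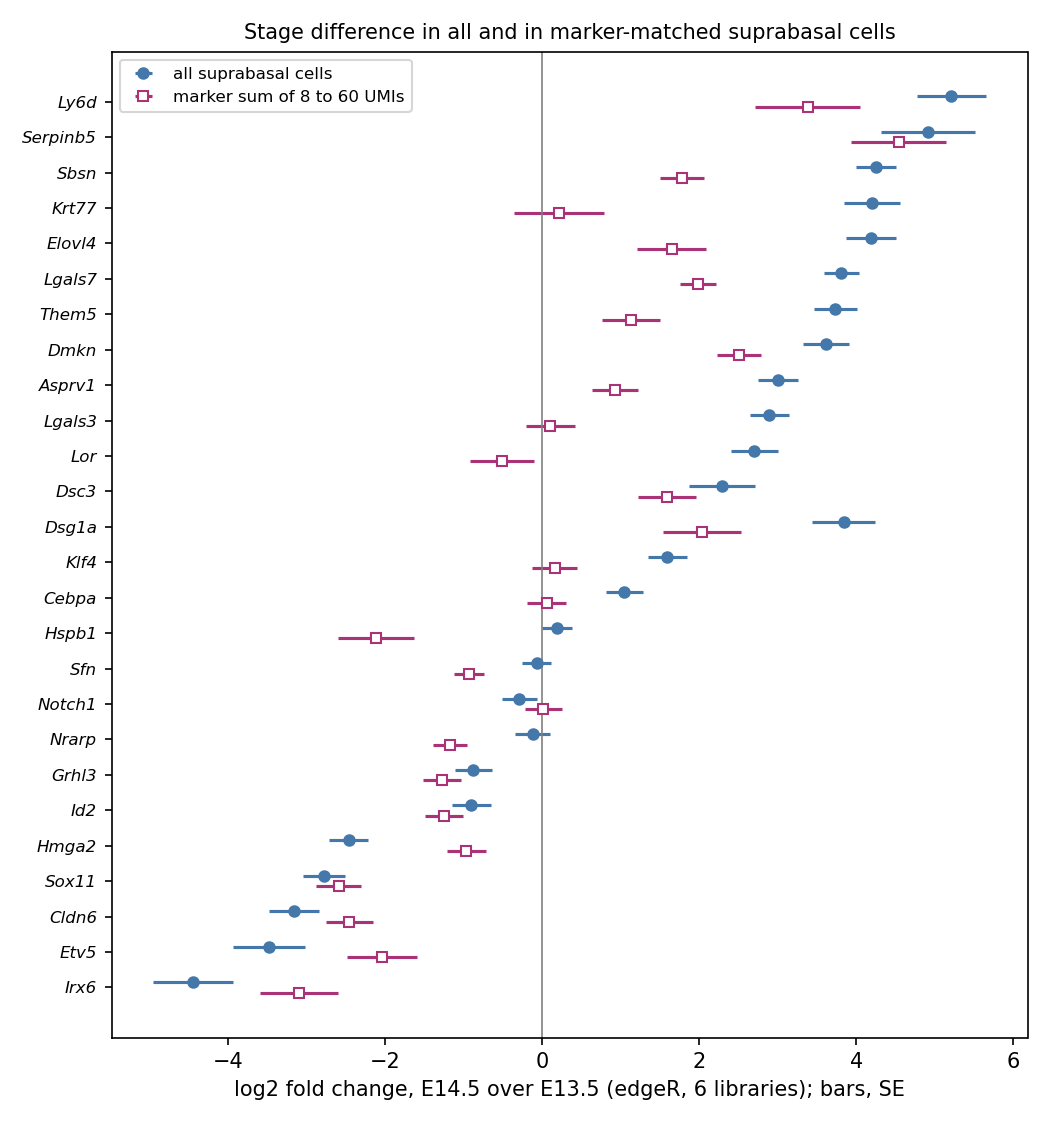
Log2 fold change of E14.5 over E13.5 with its SE (horizontal axis, edgeR over 6 libraries) for 26 named genes, over all suprabasal cells (filled circles) and over cells with 8 to 60 marker UMIs (open squares). The squares of Krt77, Lgals3 and Lor lie near or below 0 although their circles lie at 4.20, 2.89 and 2.70, and those of Sfn, Nrarp and Hspb1 lie on the negative side.

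E14.5 suprabasal cells spanned a wide range, described here by splitting each library into 3 bins of nearly equal size on the share of UMIs from Krt1, Krt10 and Krtdap. In control 1 the bins held 196, 196 and 195 cells with median depths of 14223, 12694 and 14368 UMIs. Krt14, which the keratinocyte gate used, went from 825 CPM in the low bin to 91.5 in the middle and 24.2 in the high bin of that library. Ccnd2 went from 355 to 56.9 and 20.5 CPM. Most of the drop in these basal genes lay between the low and the middle bin, and the 2 other libraries showed the same order, with Krt14 at 1155, 66.2 and 51.4 CPM in control 2 and at 585, 49.6 and 14.8 in LOF.

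The proliferation genes were lower mainly in the high bin. Their summed CPM was 4037, 3398 and 849 over the bins of control 1, 2698, 2392 and 835 in control 2 and 4339, 3073 and 924 in LOF. Cdkn1a ran the other way, at 47.3, 120 and 246 CPM in control 1, and Lor went from 24.0 to 97.3 and 352. Notch1 went from 301 to 193 and 147 CPM, while Nrarp went from 188 to 325 and 337. Hes1, another Notch target, was at 374, 367 and 349 CPM. The order of the bins was the same in both other libraries for Cdkn1a, Lor and Notch1. Hes1 was at 224, 289 and 252 CPM in control 2 and at 329, 353 and 346 in LOF, and Nrarp was highest in the middle bin of control 2, at 373 CPM.

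**Figure D4:**
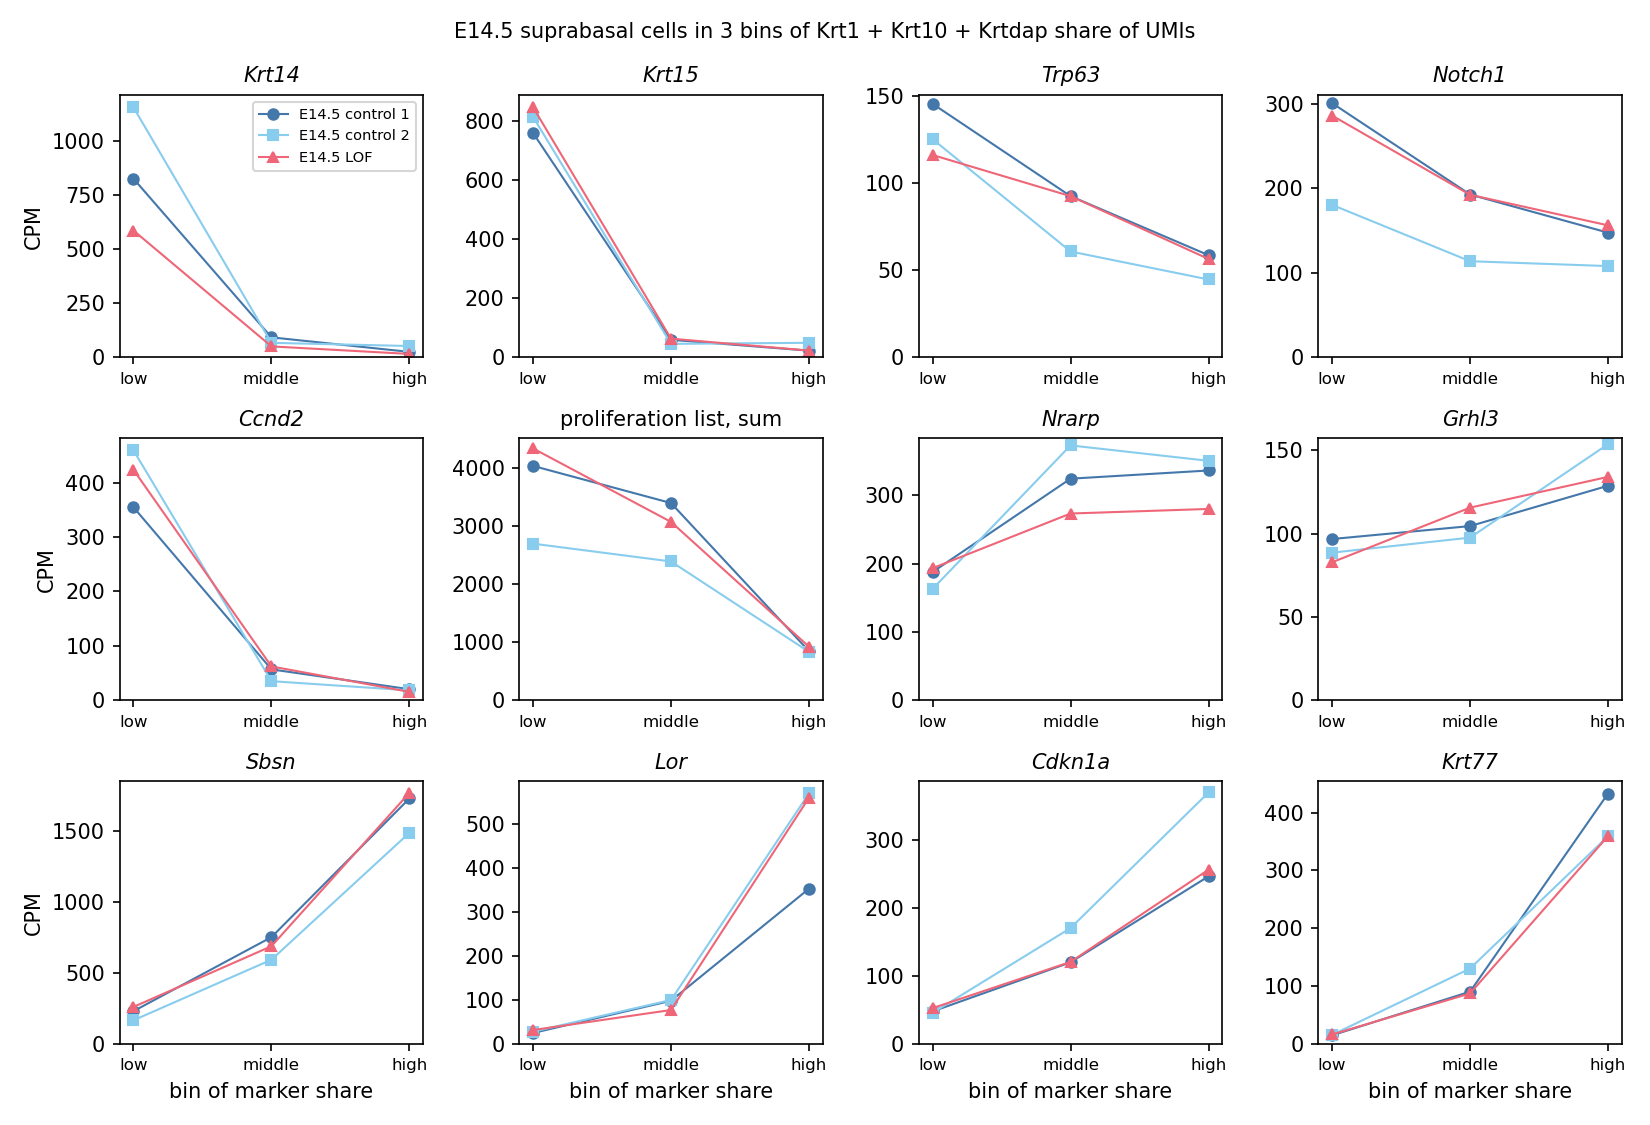
CPM on a linear axis from 0 in the low, middle and high bins of the marker share at E14.5, 1 panel per gene or list and 1 line per library. Krt14, Krt15 and Ccnd2 drop between the low and middle bins, the proliferation sum drops mainly between the middle and high bins, and Sbsn, Lor, Cdkn1a and Krt77 climb throughout.

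Whether the stage change differed from that in the other keratinocytes of the same libraries was tested in the 4 controls with an interaction of cell class and stage. The classes were split on Krt1, Krt10 and Krtdap at both stages, so the contrast partly depends on the rule. Of 12513 genes, 526 (4.2%) were called, 350 (2.8%) with a positive and 176 (1.41%) with a negative difference of signed log2 changes, suprabasal minus other. The count was 78 without E13.5 control 1, 202 without E14.5 control 1 and 222 without E14.5 control 2. Sbsn stood out on the first side, since the other keratinocytes of the controls had 11.1 and 4.16 CPM at E13.5 and 16.3 and 16.6 at E14.5 (difference of log2 changes 3.50 ± 0.24, with an edgeR adjusted p of at most 0.00806 when any 1 library was left out).

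Dmkn stood on the other side. The other keratinocytes of the controls had 3.22 and 0.884 CPM at E13.5 and 241 and 333 at E14.5. This was a smaller gain in CPM than in the suprabasal cells but a larger fold gain, from low E13.5 levels (difference -3.49 ± 0.17). That call was lost without E13.5 control 1 or control 2, with adjusted p up to 0.754 in edgeR. Lor (difference 2.42 ± 0.27), Gltp (1.70 ± 0.12) and Irx3 (2.57 ± 0.23) were called with every library left out in turn. Ccnd1 was lower at E14.5 in suprabasal cells and at 44.7 and 34.9 CPM and then 58.4 and 47.3 in the others (difference -2.44 ± 0.26, edgeR adjusted p at most 0.0434 on leaving out 1 library). Of 18 Notch pathway genes tested here, 2 had a positive and 2 a negative call, beside 2.8% and 1.41% of all genes. Notch1 (difference -1.02 ± 0.18) kept its call on leaving out each library, with an edgeR adjusted p of at most 0.0362. Jag1 (-0.79 ± 0.19) lost its call without E13.5 control 1 or either E14.5 control.

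The beta-catenin genotype was tested over 6 libraries with stage as a term. No gene was called among 10578 (0%) by edgeR, with 95 at an unadjusted p under 0.05, and DESeq2 called 0 with 58. With 1 LOF library per stage and 3 residual degrees of freedom, this count does not show that the cells were alike. The eGFP reporter gave 1.36, 0 and 9.15 CPM in suprabasal cells at E13.5 (1, 0 and 5 UMIs; a count of 0 allows up to 29.9 CPM) and 1.61, 1.07 and 5.39 at E14.5 (13, 7 and 41 UMIs). LOF fibroblasts were at 337 and 309 CPM. For tdTomato the E13.5 suprabasal cells had 610, 448 and 507 CPM and the E14.5 cells 20.4, 103 and 20.6, in control and LOF libraries alike, so it did not follow the WT label.

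An interaction of cell class and genotype over 6 libraries called 44 of 12872 genes (0.342%), 31 higher and 13 lower in LOF suprabasal cells relative to the other keratinocytes. Without E13.5 control 2 it was 20, without E14.5 control 2 27 and without E14.5 LOF 22. The first genes by p were Krt19, S100a6, Slc2a3, Psca, Krt7, Upk1b, Mal, Upk3bl and Krt18. Krt19, a simple-epithelial keratin, was at 1.36, 0 and 34.8 CPM in E13.5 suprabasal cells and 10.0, 52.9 and 136 at E14.5, so LOF was the highest library at each stage. Krt19 lost its call without E14.5 LOF, with an edgeR adjusted p of 0.39, and each of the genes named in this paragraph except Krt7 did too.

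Those keratins sat in few cells. Cells with at least 10 UMIs summed over Krt4, Krt8, Krt18 and Krt19, a cutoff chosen after the values were seen, numbered 0, 0 and 2 of 32 suprabasal cells at E13.5 and 1 of 587, 4 of 612 and 9 of 697 at E14.5. In E14.5 LOF the 9 cells held 97.9% of the Krt4 UMIs and 97.7% of the Krt19 UMIs. Krt4 was at 152 CPM over all suprabasal cells of that library and at 3.21 CPM over the rest once those 9 were set aside. Similar cells were present among the other keratinocytes, at 1, 6 and 8 cells in the E14.5 libraries. Krt4, Krt8, Krt18 and Krt19 mark periderm, and Krt4 and Krt8 had no UMI in suprabasal cells of either E13.5 control. The 7 periderm markers summed to 218, 269 and 428 CPM in the suprabasal cells at E13.5, above the 124, 124 and 138 in the other keratinocytes, and to 165, 264 and 392 at E14.5, against 191, 312 and 160. In E13.5 controls 1 and 2 most of that sum was Cldn6 (106 and 179 CPM) and Krt17 (102 and 79.6 CPM). Krt18 and Krt19 had at most 1 UMI each in those suprabasal cells. The part of the periderm markers in the results was not tested.

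**Figure D5:**
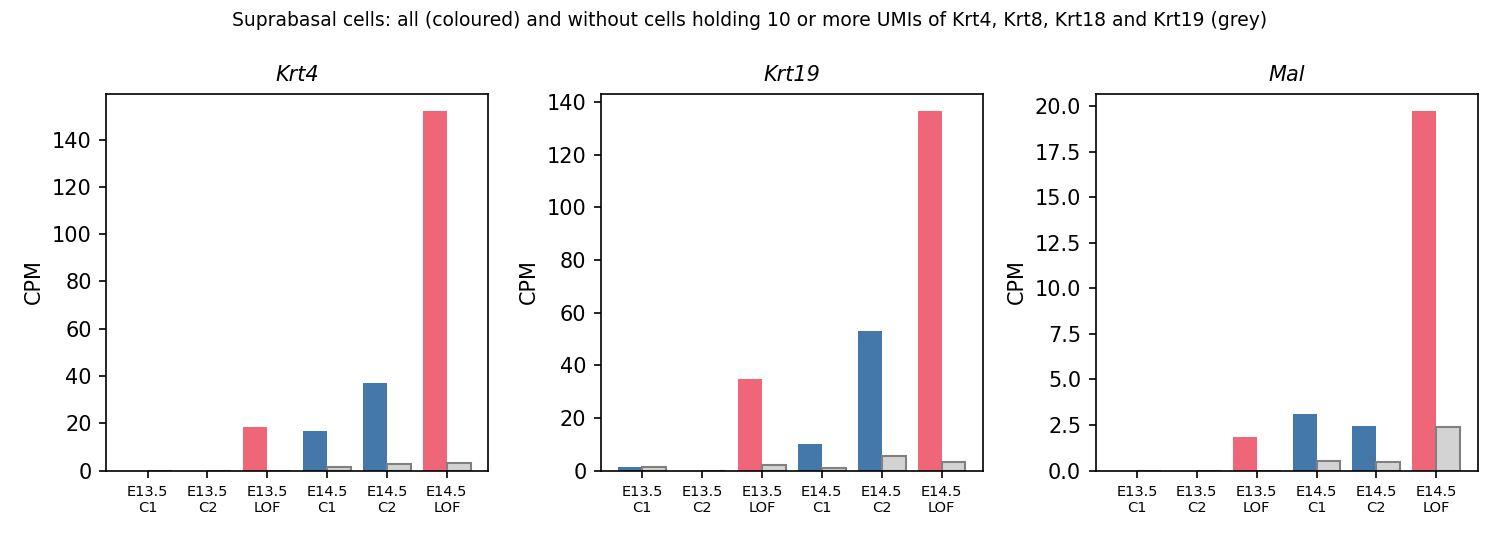
CPM of Krt4, Krt19 and Mal in the suprabasal cells of each library (C1 and C2, control 1 and 2), over all cells (coloured bars) and over the cells left once those with at least 10 UMIs of Krt4, Krt8, Krt18 and Krt19 are set aside (grey bars). The E14.5 LOF value of Krt4 goes from 152 to 3.21 CPM.

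At E14.5 alone, 4126 genes had a mean log2 CPM of at least 5 in the suprabasal cells. Krt4 and Krt19 were the 2 genes for which LOF lay above both controls by over 1 on the log2(CPM + 20) scale, and Xist, Rpl29, Pfn1 and Hist1h2ap, named here after their values were seen, lay below both by as much. For 255 genes the 2 controls themselves were apart by over 1. The differentiation genes sat close together, with Sbsn at 897, 743 and 894 CPM, Dmkn at 2681, 2806 and 2751, and Klf4 at 265, 270.1 and 289.8 in control 1, control 2 and LOF. These are values of single LOF libraries with no test.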

How the data were processed

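Libraries were made with a 10x Genomics Chromium v2 kit, per the labels' protocols. The authors deposited 1 gene-by-cell matrix per library, whose whole-number values were read as raw UMI counts; the matrix headers give integers and no processing step. Per the submitters' processing notes, Cell Ranger, Seurat, GRCm38 and mm10 were named, with no versions or roles. Of 28000 genes, 27645 were matched by identifier to GENCODE M21 for coordinates. The members and gene lists were chosen with earlier results of these data known.

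Raw UMIs were summed per library over suprabasal cells and over other keratinocytes, and CPM was computed over each sum. Tests used edgeR 4.0.16 (TMM, filterByExpr, robust quasi-likelihood fit) in R 4.3.3, with Benjamini-Hochberg adjustment over all genes tested; DESeq2 1.42.0 was an alternative. The scripts were tested on simulated data. Python 3.11.15, numpy 2.4.6, scipy 1.17.1, pandas 2.3.3 and matplotlib 3.10.9 were used.

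The stage test had been planned over the 4 controls with at least 10 members per library. E13.5 control 2 held 9, and with fewer than 2 libraries left in a group the plan was to give values and no test. Departing from this plan, a fit over 6 libraries with stage and genotype was used. It still included E13.5 control 2, as did the stage interaction in the 4 controls. The 4-control fit became an alternative added after the data were seen. No doublet caller was run; likely doublets were left out as an alternative. Alternatives covered the marker cutoff, genes per cell, likely doublets, normalization, filter, replicate block and leaving out each library.

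Named genes were the 5 markers; list members with the highest CPM or past a test; up to 10 rises and 10 falls by log2 fold change among called genes that averaged 5 or more on the log2 CPM scale and had no overlap between stages; the 15 highest and 15 lowest against other keratinocytes at E14.5; and up to 10 interaction genes each way. Rule, mitochondrial, ribosomal, haemoglobin, Gm and Rik genes were left out. Thinning drew 3000 UMIs per cell with a fixed seed. Shares of cells have exact Clopper-Pearson 95% intervals, which cover counting error only. Flg and Cebpd were not analysed here. A gene that the naming rule chose is not reported here.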

Additional observations from a re-analysis of the deposited data

Results flagged for a closer look

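Interaction tests in edgeR asked whether an effect in the suprabasal cells differed from that in the other keratinocytes of the same libraries, and the first 10 genes by p in each direction are given because the difference itself was called. Values are signed differences of log2 fold changes, suprabasal minus other. They do not give the size of the change in either class. For stage, in the 4 controls, the difference was positive for Sbsn (3.50), Irx3 (2.57), Lor (2.42), Gjb6 (2.18), Gjb2 (1.87), Gltp (1.70), Lgals7 (1.25), Cxcl14 (1.13), Itm2b (0.98) and Actg1 (0.83). It was negative for Etv4 (-4.52), Dmkn (-3.49), Dusp6 (-2.54), Ccnd1 (-2.44), Basp1 (-2.09), Arl4c (-2.04), Bex1 (-1.80), Ccnd2 (-1.77), Mt1 (-0.94) and H19 (-0.79). The call was lost without E13.5 control 1 for Gjb6, Lgals7, Basp1, Dusp6, Arl4c and Etv4, and without either E13.5 control for Cxcl14, Dmkn, Ccnd2 and Mt1. For Gjb6 and Gjb2, connexins of the epidermal gap junction, the suprabasal cells were at 27.3, 49.8, 34.7 and 47.8 CPM and at 57.3, 19.9, 46.3 and 53.3 in E13.5 control 1, control 2, E14.5 control 1 and control 2. The other keratinocytes were at 504, 431, 146 and 162 CPM of Gjb6 and 514, 532, 129 and 162 of Gjb2, lower at E14.5 in both pairs.

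For the LOF genotype, over 6 libraries, the difference was positive for Psca (6.38), Upk1b (3.09), Mal (2.86), Krt19 (2.85), S100a6 (2.76), Krt18 (2.37), Krt7 (2.21), Slc2a3 (2.07), S100a9 (1.82) and Upk3bl (1.45). It was negative for Myod1 (-3.16), Tnnt2 (-2.60), Anxa8 (-1.998), Smoc2 (-0.98), Dcn (-0.93), Rassf9 (-0.74), Sostdc1 (-0.69), Gas1 (-0.69), H1f0 (-0.42) and H19 (-0.35). Myod1 and Tnnt2 are muscle genes, at 0.25 to 9.95 and 0 to 3.42 CPM in the suprabasal cells. Apart from Krt7, each of these genes lost its call or changed sign when at least 1 library was left out; S100a6, Slc2a3 and Psca, for example, lost it without E14.5 LOF.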

How the results depend on the processing

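Of 59 genes called for stage and given with a value, 950 of 1057 alternative values kept direction and call, 102 kept direction only and 5 changed sign, all with a marker sum of 8 to 60 (added after the data were seen): Dgat2 -0.31, Lor -0.51, Lypd3 -0.31, Gltp -0.25 and Rab25 -0.80. A further 8 genes without a stage call were not counted there, and 7 of them changed sign under an alternative, among them Sfn (-0.93 to 0.64), Nrarp (-1.18 to 0.61), Hspb1 (-2.12 to 1.19) and Mgst1 (-0.93 to 1.59). Stage calls numbered 1047 with no filter, 1049 with a marker sum of at least 4, 154 in the band of 8 to 60 and 220 in the 4 controls alone (394 there with the replicate block); the range on leaving out 1 library was 171 to 2892. Genotype calls numbered 16 with no filter, 1 with a marker sum of at least 16, 8 in the band and 0 to 21 on leaving out 1 library. The replicate block gave 2616 stage and 29 genotype calls. A block of inferred pairs gave 234 and 52. It paired each LOF library with control 1 of its stage, and the controls numbered 2 with each other. The labels do not give these pairs. Within that block only the controls numbered 2 differ in stage, so its stage effect rests on them and on 9 E13.5 cells. Control 1 minus control 2 correlated between stages at r = 0.276 over 4174 genes. The labels do not say that a number marks a shared litter or batch, and the control numbers form only 2 pairs. Both controls numbered 2 carried fibroblast eGFP and had the lower totals (56453704 and 53461986 UMIs, against 86446575 and 75280717). Leaving out 1 library gave 78 to 369 calls for the stage interaction and 20 to 52 for the genotype interaction, where Dcn (-1.19 to 0.57 over these), Smoc2 (-1.23 to 1.53) and Sostdc1 (-0.93 to 0.66) changed sign without E14.5 LOF. Suprabasal shares were 7.56% (E13.5 control), 46.2% (E14.5 control), 11.8% (E13.5 LOF) and 35.1% (E14.5 LOF) at a marker sum of at least 4, and 30.8, 2.97 and 24.4% in E14.5 control, E13.5 LOF and E14.5 LOF at 16. The E13.5 share of proliferation-positive cells exceeded that of other keratinocytes by a mean of 10.1 percentage points at 1 UMI and 23.4 at 3 UMIs. Without thinning the mean was 5.09, from 8.22 in control 1, 0.0958 in control 2 and 6.95 in LOF. The 9 cells of E13.5 control 2 (100485 UMIs) limit every E13.5 value.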

Other observations

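Of 14 fetal growth genes tested, 3 fell in suprabasal cells (edgeR adjusted p = 0.012 for Mest, 6.53e-05 for Nnat and 1.9e-08 for Hmga2) and none rose, with a median log2 fold change of -0.17; 2.22% of all genes were called lower. H19, an imprinted noncoding RNA, was at 1972, 2637 and 1966 CPM in E13.5 control 1, control 2 and LOF and 2190.1, 1720.5 and 2107 at E14.5. In the other keratinocytes it was at 555, 625 and 726 CPM and then at 1159, 782 and 1187, below the suprabasal cells in every library.

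The hypoxia and glycolysis list (16 tested, median log2 fold change 0.38) had 2 rises by edgeR, Aldoa (adjusted p = 0.0423) and Ndrg1 (adjusted p = 0.0282). Of 15 stress and immediate early genes (median 0.68), 1 was called, Hspa1a (edgeR adjusted p = 0.0116), at 12.3, 9.95 and 9.15 CPM at E13.5 and 35.3, 46.0 and 29.8 at E14.5. Over all genes 6.33% were called and 4.11% were called higher, and 1 of 15 is near that share.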
